A study of Mus musculus with 6 samples.

Results

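The genes described here encode the constitutive proteasome, the protease that most cells carry at all times. They were taken as every mouse gene on the array whose symbol begins with Psma, Psmb, Psmc or Psmd and a number, leaving out the immunoproteasome genes Psmb8, Psmb9 and Psmb10. The pattern found 37 of the 21368 genes named on the array, and 35 of them were bright enough to test. The pattern used names only and no measured value. It also took Psmc3ip, which encodes a partner of meiotic recombinases and is no proteasome subunit. Its own values are given apart, but it stays in the counts and medians of members unless it is said to be left out.

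The proteasome is a barrel of stacked rings with a cap. The alpha rings gate the barrel, and the beta rings hold the chymotrypsin-like, caspase-like and trypsin-like proteases. The cap, or regulatory particle, has a base whose ATPases unfold and feed in the substrate, and a lid that removes the ubiquitin chain that marks it. In epidermis the proteasome degrades short-lived regulators and damaged proteins in keratinocytes, and cells that meet interferon replace the catalytic subunits with those of the immunoproteasome, which alters the peptides cut for antigen presentation.

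Total tail epidermis came from wild type C57BL/6 mice, after EDTA had separated it from dermis. The young group held 3 samples from mice of 8 weeks. The aged group held 3 samples, of which replicate 1 came from a mouse or mice of 22 months and replicates 2 and 3 from 25 months. The small amount of RNA was amplified as cDNA, labelled with Cy3 and hybridised to a 1-colour Agilent array, and the design asked which genes differed between young and aged epidermis. The labels do not say whether the samples of a group came from separate animals, so p-values measure only the spread between these samples.

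A level is given as log2 of the scanner's processed signal minus the 75th percentile of that array, so that 0 is the array's own 75th percentile. A difference is the aged mean minus the young mean on that log2 scale. Levels of different probes were not compared with each other. Each array measured 55681 probes on 1 slide in 1 scan, with no saturated spot, and 50.02% to 54.4% of probes were well above background. The number of arrays, 3 in each group, limits the precision. The tissue label was checked against marker genes. All 6 basal keratinocyte markers were above background on all 6 arrays, and their summed signal was 9.80 to 9.91 in young and 9.90 to 10.19 in aged arrays (log2). Genes of other cell types were also measured. Of 3 endothelial markers 2 were above background on all 6 arrays (summed 2.15 to 2.39 in young and 2.08 to 2.24 in aged arrays). Of 6 fibroblast markers 4 passed the filter and 2 were above background on all arrays, with sums of 2.42 to 3.03 in young arrays and of 4.36, 2.01 and 1.34 in aged replicates 1, 2 and 3. Of 4 muscle markers 1 passed the filter, and none was above background on all arrays (sums of -3.15 or lower). At the defining markers Cdh5, Cd3d, Lum, Pdgfra, Ckm, Des and Myh1 no array was well above background. Because the tissue was measured in bulk, fewer cells of a type and less RNA per cell cannot be told apart.

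Some markers moved with age or sat on single arrays. The summed signal of 10 hair shaft and inner root sheath genes was 10.06 to 10.69 in young arrays but 9.75, 7.35 and 4.49 in aged replicates 1, 2 and 3. That of 7 melanocyte genes was 3.92 to 4.25 in young and 2.29 to 3.77 in aged arrays. That of 6 Langerhans cell genes was 3.24 to 3.75 in young and 1.66 to 3.57 in aged arrays. T cell markers, of which 3 of 5 passed the filter, summed to 1.26 to 1.87 in young and 1.99 to 3.36 in aged arrays, while their median level was -2.21 to -2.04 in young and -3.28 to -2.09 in aged arrays. The Y-linked gene Ddx3y was well above background on young replicate 1 and aged replicate 1 alone, at 2.17 and 1.89, against -6.48 or lower on the other arrays. The Y-linked genes Eif2s3y and Kdm5d and a probe of Uty were also well above background on these arrays alone. Another probe of Uty was so on both of these and on young replicate 3. Xist, the X-inactivation gene, went the other way, with its brighter probe at -2.87 on young replicate 1 and -7.07 on aged replicate 1. That probe was at 0.72 to 1.34 on the other arrays. The samples numbered 1 therefore stood apart from the rest in both age groups, as male tissue beside female tissue would at these genes. The part of these differences in the proteasome values below was not tested.

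No proteasome gene passed the test of aged against young epidermis. In limma with Benjamini-Hochberg adjustment over all 25066 features, 0 of 35 members were called at an adjusted p under 0.05, against 16 features, or 0.0638% of all. The lowest adjusted p of a member was 0.298, and 0 of 35 members had an unadjusted p under 0.05, where 18.4% of all features did. All 35 confidence intervals (95%) of the difference included 0. For the 34 members other than Psmc3ip, the intervals stayed between -0.40 and 0.71 on the log2 scale. No member differed by more than 1 log2 unit in either direction.

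The sign of the differences was uneven. The difference was above 0 for 32 of 35 members, beside 63.6% of the 14135 named genes tested and 55.6% of all features. That count was 25 when each array was scaled to the percentile of the probes detected on all arrays, beside 51% of named genes. It was 27 after quantile normalization, beside 59.1%, and 34 when scaled to the median, beside 71.6%. The median difference was 0.13 over the 35 members, 0.093 over all named genes and 0.043 over all features. The members' median was 0.21 without young replicate 1, 0.22 with slide row as a block and 0.20 scaled to the median. It was 0.060 after quantile normalization and 0.043 with the percentile over probes detected on all arrays, where all named genes had 0.057 and 0.0070. In 7 members the lowest aged array lay above the highest young array. This is close to the background, since 19.5% of named genes and 16.6% of all features did the same, and no member showed the reverse, as 7.48% of named genes did. The 7 were Psma1, Psmb1, Psmb3, Psmd3, Psmd4, Psmd5 and Psmd9. The count depended on young replicate 1: without it 28 of 35 members did not overlap, beside 32.9% of named genes, and without aged replicate 2 it was 14, beside 25.1%.

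**Figure D1:**
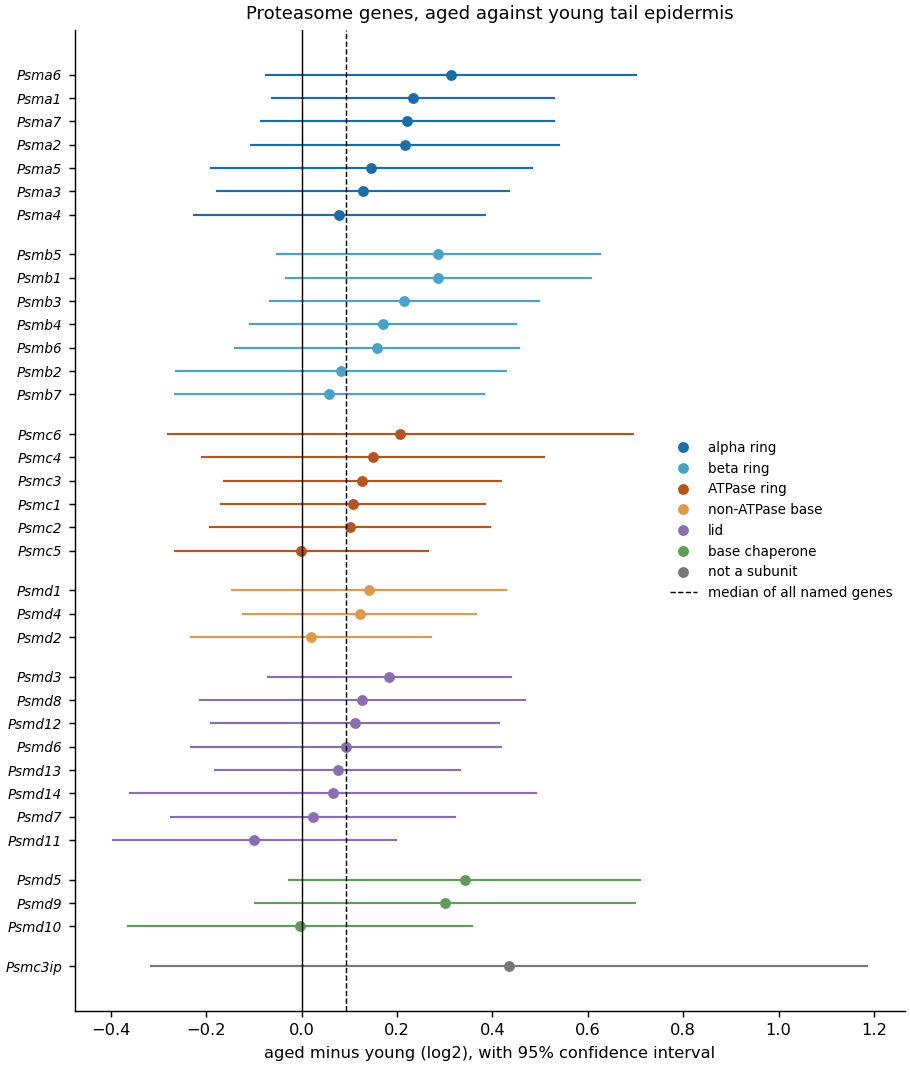
Aged minus young difference of the 35 tested proteasome genes, on the log2 scale relative to each array's 75th percentile, with 3 arrays a group. Points are differences, lines are 95% confidence intervals, colours mark the role in the complex and the dashed line is the median of all named genes, 0.093. All 35 intervals cross 0, and 32 points lie above it (25 with the percentile over probes detected on all arrays, 27 after quantile normalization).

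The promoters of the members were read to show what precedes these genes in the genome. Of 37 members, 30 had a promoter (250 bases before to 50 after the start) in the RefSeq table of GRCm38.p6. The core of the antioxidant response element, to which Nfe2l1 binds, was searched on both strands as TGACNNNGC and was found in 5 member genes, 16.7%, beside 14.0% of the 27025 genes with a promoter. These are shown because they hold the match, with the upstream bases 5′ to 3′ along the gene and the matched bases in capitals. A match on the opposite strand appears as its reverse complement.
Psmb5: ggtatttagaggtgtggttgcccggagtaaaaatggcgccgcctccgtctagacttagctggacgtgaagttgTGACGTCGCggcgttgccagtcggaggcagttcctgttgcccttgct
Psmb6: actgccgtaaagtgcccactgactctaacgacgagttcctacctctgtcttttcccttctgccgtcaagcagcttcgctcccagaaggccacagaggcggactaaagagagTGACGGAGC
Psmd9: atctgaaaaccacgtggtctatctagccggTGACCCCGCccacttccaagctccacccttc
Psmc6: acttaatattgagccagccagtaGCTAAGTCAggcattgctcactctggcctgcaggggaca
Psmd12: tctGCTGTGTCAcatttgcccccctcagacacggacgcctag

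The stretches lie at chr14:54617996-54618115 (minus strand) for Psmb5, chr11:70525237-70525356 (plus) for Psmb6, chr5:123228129-123228189 (plus) for Psmd9, chr14:45329574-45329635 (plus) for Psmc6 and chr11:107479278-107479319 (plus) for Psmd12, in GRCm38.p6. Counting from the start of the gene, the match spans positions -47 to -39 in Psmb5 and -9 to -1 in Psmb6, both catalytic subunits, and -31 to -23 in Psmd9. On the opposite strand it spans -227 to -219 in Psmc6 and -247 to -239 in Psmd12. The 5 genes differed by 0.11 to 0.30 with a median of 0.21, and the 24 tested members whose promoter had no match by -0.099 to 0.43 with a median of 0.13, Psmc3ip among them, given as description only.

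The search covered both strands for 2 further motifs. CCAAT, the box bound by NF-Y, was in 13 member genes, 43.3%, beside 41.1% of all genes. Psmc3ip, which is no subunit, and Psmb11, which was not tested, are among the 13. GGGCGG, the box bound by Sp1, was in 18 member genes, 60.0%, beside 38.2% of all genes. In Psmd9 the GGGCGG box, on the opposite strand, overlaps the match shown in capitals. The 18 included Psmb6, Psma1, Psma7, Psmd5 and Psmd9, and also Psmc5, Psmd10 and Psmd11, the 3 members with a difference below 0. No binding or methylation was measured in these samples.

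The 7 genes of the alpha rings, which form the gated outer rings of the barrel, all had differences above 0, except Psma4 after quantile normalization and with the percentile over probes detected on all arrays. They lay between 0.079 for Psma4 and 0.31 for Psma6, with a median of 0.22. Psma6 was at 4.28, 3.84 and 3.84 in the young arrays and at 4.41, 4.26 and 4.24 in the aged arrays. Young replicate 1 reached the aged values, while the other young arrays lay below all of them, so the groups overlapped. The difference was 0.31 ± 0.16 (SE), a 1.24-fold ratio, with an adjusted p of 0.348 in limma. Psma1 was at 4.87, 4.71 and 4.63 in young and at 5.08, 4.91 and 4.92 in aged arrays, which did not overlap. Its difference was 0.23 ± 0.12 (SE; limma adjusted p = 0.357). Psma7, Psma2, Psma5 and Psma3 differed by 0.22, 0.22, 0.15 and 0.13.

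The 7 beta ring genes also all had differences above 0 in the main setting, with a median of 0.17. Psmb7 was below 0 without aged replicate 1 and after quantile normalization. With the percentile over probes detected on all arrays, both Psmb2 and Psmb7 were below 0. Among the 7 are the catalytic subunits. Psmb5, the chymotrypsin-like subunit and the main target of proteasome inhibitor drugs, was at 7.07, 6.72 and 6.76 in young arrays and at 7.22, 7.04 and 7.14 in aged arrays. Aged replicate 2 lay just below young replicate 1, and the other aged arrays lay above every young array. The difference was 0.29 ± 0.14 (SE), a 1.22-fold ratio, with an interval of -0.051 to 0.62 and a limma adjusted p of 0.329. A second, dimmer probe of Psmb5 differed by 0.23 ± 0.14 (SE). Psmb5 is also the first of the promoters printed above.

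Psmb6, the caspase-like subunit, was at 6.55, 6.32 and 6.28 in young arrays and at 6.57, 6.46 and 6.59 in aged arrays. Young replicate 1 was above aged replicate 2 and just under the other aged arrays. The difference was 0.16 ± 0.12 (SE; limma adjusted p = 0.518). It was 0.24 without young replicate 1 and 0.071 with the percentile over probes detected on all arrays. Psmb7, the trypsin-like subunit, was at 3.78, 3.51 and 3.59 in young arrays and at 3.85, 3.60 and 3.62 in aged arrays. The groups overlapped, with the samples numbered 1 highest in each. The difference of Psmb7 was 0.059 ± 0.13 (SE; limma adjusted p = 0.845). It was -0.021 without aged replicate 1, -0.034 after quantile normalization and -0.027 with the percentile over probes detected on all arrays.

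Of the structural beta genes, Psmb1 had the lowest unadjusted p of the core particle (0.0709 in limma). It was at 4.60, 4.29 and 4.26 in young arrays and at 4.68, 4.65 and 4.69 in aged arrays. The aged arrays lay within 0.020 (SD) of each other and above every young array, of which replicate 1 came closest. The difference was 0.29 ± 0.13 (SE; limma adjusted p = 0.309). Psmb3, whose groups also did not overlap, differed by 0.21, Psmb4 by 0.17 and Psmb2 by 0.083.

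The samples numbered 1 were high for the core particle in both groups. Taking each gene relative to its young mean, the median of the 14 core genes was 0.17, -0.085 and -0.10 in young replicates 1 to 3 and 0.27, 0.15 and 0.20 in aged replicates 1 to 3. Young replicate 1 thus lay above aged replicate 2 and the lists overlapped between the groups. Young replicate 1 was the highest young array for 14 of 14 core genes and for 32 of 35 members, against 46.5% of named genes. The excess of young replicate 1 over the mean of the other young arrays had a median of 0.23 over the members and 0.046 over all named genes. In the aged group, replicate 1 was highest for 20 members, replicate 3 for 14 and replicate 2 for 1, beside 36.7%, 45.8% and 17.5% of named genes. Between samples of the same number, the aged array was above the young array in 25 of 35 members for number 1, 31 for number 2 and 32 for number 3, beside 52.3%, 61% and 68% of named genes. All 3 differences were positive in 23 members, beside 32.7% of named genes. Leaving out both samples numbered 1 left 29 of 35 members without overlap, beside 46.7% of named genes, and 34 higher in aged arrays, with 0 members past the adjusted threshold in limma (1.25% of all features) and 3 with an unadjusted p under 0.05 (25.7% of all features), namely Psma6, Psmb1 and Psmb5.

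**Figure D2:**
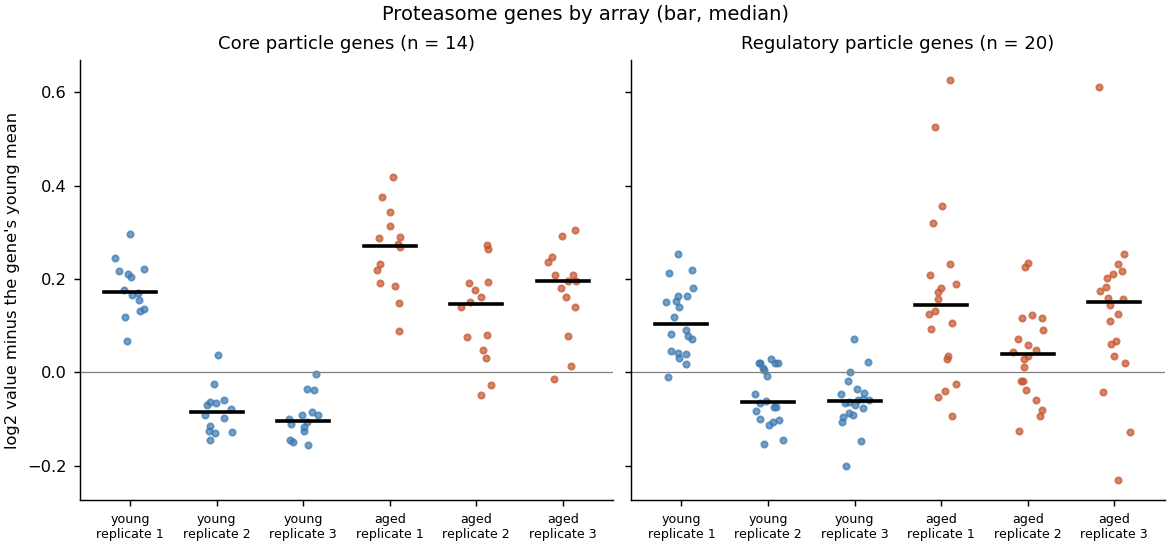
Log2 values of proteasome genes on each array, minus the gene's young mean, for 14 core particle genes (left) and 20 regulatory particle genes without Psmc3ip (right). Each point is a gene and each bar the median of that array. The core bars stand at 0.17 in young replicate 1 and 0.15 in aged replicate 2, so the groups overlap, while young replicates 2 and 3 lie lowest.

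The ATPases Psmc1 to Psmc6 form the ring of the base that unfolds substrates. They differed by -0.00063 to 0.21 with a median of 0.12, and 0 of 6 had groups without overlap. Psmc6 had the largest difference of the ring, 0.21 ± 0.20 (SE). It was at 2.90, 2.57 and 2.57 in young arrays and at 3.20, 2.90 and 2.55 in aged arrays, so that the lowest value of all was an aged one. Psmc4, Psmc3, Psmc1 and Psmc2 differed by 0.15, 0.13, 0.11 and 0.10. Psmc5 was at 4.68, 4.54 and 4.72 in young arrays and at 4.62, 4.61 and 4.71 in aged arrays. Its groups lay on top of each other, with a difference of -0.00063 ± 0.11 (SE) and an interval of -0.27 to 0.26, and the sign turned in 8 of the 19 alternatives run.

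The non-ATPase base genes encode the scaffolds Psmd1 and Psmd2 and the ubiquitin receptor Psmd4. Their differences were 0.14, 0.020 and 0.12. The Psmd4 arrays lay close together within each group, at 6.27, 6.25 and 6.17 in young and 6.36, 6.35 and 6.34 in aged arrays. The aged arrays lay above all young arrays, but the difference of 0.12 ± 0.10 (SE) had a limma adjusted p of 0.542. Psmd2 was at 5.49, 5.50 and 5.43 in young arrays and at 5.42, 5.52 and 5.54 in aged arrays, which overlapped (0.020 ± 0.10, SE). It was at -0.060 after quantile normalization and at -0.066 with the percentile over probes detected on all arrays.

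The lid has 8 genes here, and their median difference of 0.085, the lowest of the roles, was 0.0019 after quantile normalization and -0.0012 with the percentile over probes detected on all arrays. Psmd14, the deubiquitinase that takes off the ubiquitin chain, was at 2.05, 1.69 and 1.64 in young arrays and at 2.11, 1.71 and 1.75 in aged arrays. In both groups replicate 1 was well above the others, and the difference was 0.065 ± 0.18 (SE). Psmd3 was at 6.73, 6.71 and 6.62 in young arrays and at 6.92, 6.81 and 6.89 in aged arrays, with no overlap (0.18 ± 0.10, SE; limma adjusted p = 0.388). Psmd11 was the most negative member, at 2.48, 2.39 and 2.29 in young arrays and at 2.42, 2.29 and 2.16 in aged arrays. These groups overlapped, and the difference was -0.099 ± 0.12 (SE; limma adjusted p = 0.694). Leaving out each array in turn kept Psmd11 between -0.16 and -0.033. Psmd7 differed by 0.024 ± 0.12 (SE), and its values were 3.75, 3.67 and 3.60 in young and 3.58, 3.66 and 3.86 in aged arrays, which spanned the young range on both sides. Psmd8, Psmd6 and Psmd13 differed by 0.13, 0.093 and 0.076. For Psmd12 the brighter probe gave 5.07, 4.84 and 4.84 in young and 5.02, 4.93 and 5.14 in aged arrays, which overlapped, and a difference of 0.11 ± 0.12 (SE). Its dimmer probe gave -0.047, so the probes disagreed in sign. Leaving out single arrays gave 0.058 (without aged replicate 3) to 0.19 (without young replicate 1).

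Psmd5, Psmd9 and Psmd10 are chaperones that help to build the base and leave before the complex is finished. Psmd5 had the lowest unadjusted p of all members (0.063 in limma). It was at 1.31, 1.25 and 1.14 in young arrays and at 1.41, 1.47 and 1.84 in aged arrays, which did not overlap. Aged replicate 3 was the highest and the difference was 0.34 ± 0.15 (SE), a 1.27-fold ratio, with an interval of -0.025 to 0.71 and a limma adjusted p of 0.298. Without aged replicate 3 it was 0.21. Psmd9 was at 1.43, 1.45 and 1.44 in young arrays and at 2.06, 1.55 and 1.60 in aged arrays. All aged arrays lay above the young group, and replicate 1 was far above the other aged arrays. The difference was 0.30 ± 0.16 (SE; limma adjusted p = 0.373), and 0.14 without aged replicate 1. Psmd10 was at 0.87, 0.70 and 0.48 in young arrays and at 0.64, 0.56 and 0.84 in aged arrays, which overlapped throughout. Its brighter probe differed by -0.0031 ± 0.15 (SE) and its dimmer probe by 0.25 ± 0.13 (SE), so the probes disagreed. Of the 8 members with a second probe past the filter, 6 had the same sign on both.

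Psmc3ip, the gene that is no subunit, had the largest difference of the members and the widest interval. It was at -1.31, -1.98 and -1.87 in young arrays and at -0.71, -1.43 and -1.72 in aged arrays. In both groups replicate 1 was highest and the groups overlapped. The difference was 0.43 ± 0.31 (SE), with an interval of -0.32 to 1.18 and a limma adjusted p of 0.480. It was 0.15 without aged replicate 1, less than the 0.42 of Psmd5 in that setting. The tissue-specific members were not tested. Psmb11, the catalytic subunit of the thymus, was well above background on 0 of 6 arrays. Psma8, the alpha subunit of the testis, was well above background on aged replicate 2 alone, at -2.15 against -6.55 to -7.03 on the other arrays.

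The core particle genes differed more than the regulatory ones in the median, at 0.19 for 14 genes against 0.11 for 21, and at 0.11 against 0.026 with the percentile over probes detected on all arrays. The gap between these medians was 0.081 and lay between 0.063 and 0.12 in all 19 alternatives run. Some of these could not move it, since they shift all genes of an array alike or leave each difference as it was. Among them were median scaling, the percentile over probes detected on all arrays and the replicate block, all at 0.081. On single arrays the core median minus the regulatory median was 0.054, -0.019 and -0.040 in young and 0.11, 0.10 and 0.050 in aged replicates 1 to 3, so that young replicate 1 lay just above aged replicate 3. The core median was above the median of all named genes in every setting run, while the regulatory median was below it in 3, namely without young replicate 2, without aged replicate 1 and after quantile normalization. Beside these, 78 tested ribosomal protein genes had a median of 0.19, with 52 (66.7%) without overlap. The 82 tested subunits of the respiratory chain and ATP synthase had a median of 0.18, with 22 (26.8%) without overlap, beside 19.5% of named genes. Both of those lists are given as description only.

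**Figure D3:**
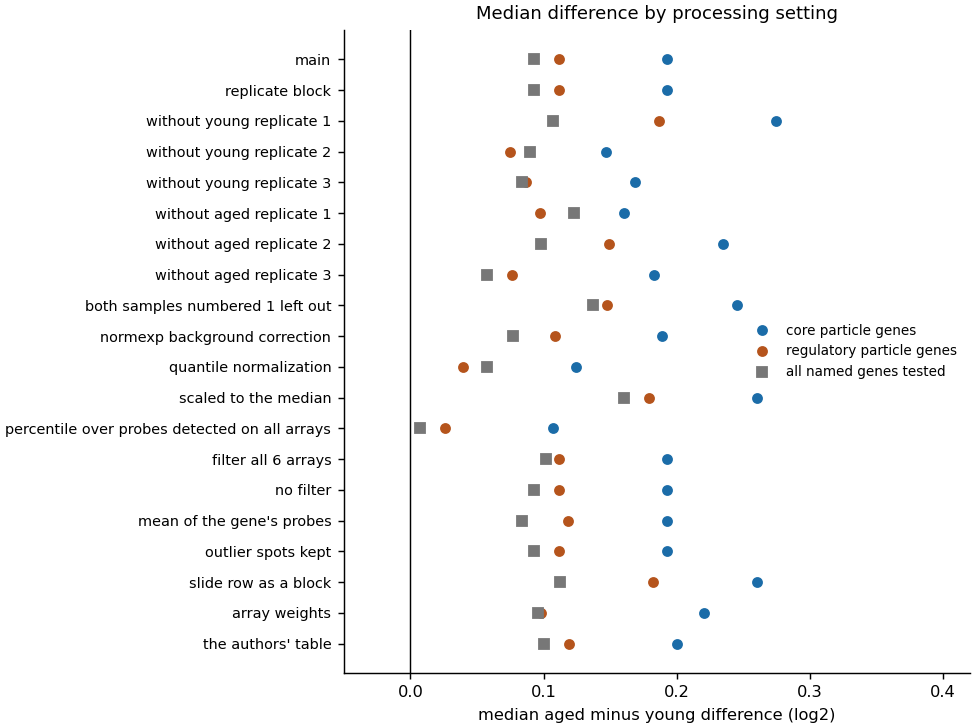
Median aged minus young difference (log2) of 14 core particle genes, 21 regulatory particle genes including Psmc3ip, and all named genes tested, under the main setting at the top and 19 alternatives. Both proteasome medians and the median of all named genes are positive in each setting, and the count of members above 0 ranged from 25 to 34. The core points lie to the right of the regulatory points in each row.

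A comparison of each constitutive catalytic subunit with its immunoproteasome counterpart within the same array removed whatever an array gave to both. It did not narrow the young spread of the immunoproteasome genes. The young SD was 0.44 for Psmb9 minus Psmb6, 0.36 for Psmb8 minus Psmb5 and 0.081 for Psmb10 minus Psmb7. For Psmb9, Psmb8 and Psmb10 alone it was 0.30, 0.16 and 0.069. The immunoproteasome genes Psmb8, Psmb9 and Psmb10 differed by 0.81 ± 0.19, 1.24 ± 0.33 and 0.45 ± 0.11 (SE), with groups that did not overlap. Their limma adjusted p was 0.151, 0.176 and 0.165, and the unadjusted p was 0.00545, 0.00903 and 0.00741. Psmb9 was at -1.65, -1.21 and -1.09 in young arrays and at -0.77, 0.40 and 0.14 in aged arrays. Psmb8 was at -2.02, -1.71 and -1.77 in young and at -1.28, -0.66 and -1.12 in aged arrays. For both, the samples numbered 1 were the lowest of their group, the reverse of the order seen in Psmb5 and in most core genes.

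The change of Psmb9 minus that of Psmb6, its constitutive counterpart, was 1.08 ± 0.45 (SE), and 3 of 3 aged arrays lay above all young arrays. That of Psmb10 minus Psmb7 was 0.39 ± 0.064 (SE), with 3 of 3 aged arrays above. That of Psmb8 minus Psmb5 was 0.52 ± 0.31 (SE), with 2 of 3 aged arrays above all young ones. It was 0.32 without young replicate 1, 0.30 without aged replicate 2 and 0.28 with normexp background correction. In those settings Psmb9 minus Psmb6 was at 0.83, 0.81 and 0.77, and Psmb10 minus Psmb7 at 0.34, 0.41 and 0.40. In the exact two-sided permutation test over samples, the main changes for Psmb9, Psmb10 and Psmb8 gave p = 0.1, 0.1 and 0.2. After Benjamini-Hochberg adjustment over the 3 pairs these p-values were 0.15, 0.15 and 0.2. With 3 arrays a group the smallest p possible is 0.1, so the design could not pass 0.05. The summed signal of T cell markers, given above, was also higher in aged arrays, their median level was not, and Cd3d was above background on no array. Their part in the immunoproteasome values was not tested.

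**Figure D4:**
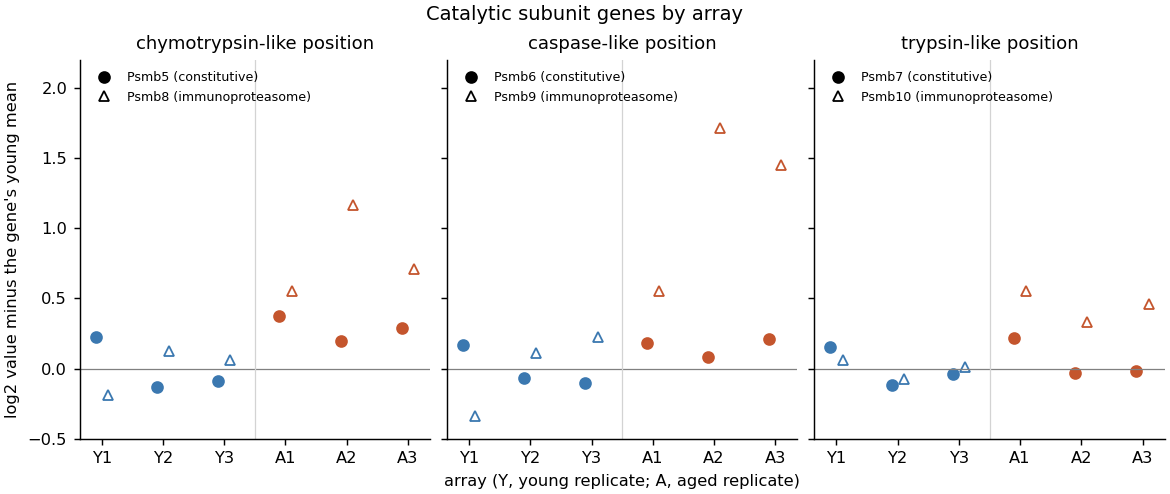
Log2 values of the 3 constitutive catalytic subunit genes (filled circles) and their immunoproteasome counterparts (open triangles) on each array, minus the gene's own young mean. Blue marks young and orange aged arrays, 3 a group. Psmb9 minus Psmb6 and Psmb10 minus Psmb7 are above every young array on 3 of 3 aged arrays, and Psmb8 minus Psmb5 on 2 of 3.

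Of the other genes of the pathway, 58 of 62 listed were tested apart from autophagy. No gene was called after adjustment in limma, and 9 had an unadjusted p under 0.05, 8 with a positive difference and 1 with a negative, which is 15.5% beside 18.4% of all features. Of the 58, 49 had a difference above 0 (43 after quantile normalization, 36 with the percentile over probes detected on all arrays), 84.5% beside 63.6% of named genes, and the median was 0.15. Of 6 listed assembly chaperones, 5 were tested. All 5 had aged arrays above all young arrays, and 2 had an unadjusted p under 0.05 in limma. Over all named genes 19.5% had aged arrays above all young arrays, and over all features 18.4% had an unadjusted p under 0.05, shares that hold for the lists below too. Psmg4 was at 1.24, 0.82 and 0.93 in young and at 2.06, 1.43 and 1.39 in aged arrays, a difference of 0.63 ± 0.22 (SE; limma adjusted p = 0.231). Psmg1, Psmg2 and Pomp, the maturation factor, differed by 0.30, 0.24 and 0.21.

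Of 7 listed activator and inhibitor genes, 6 were tested and 2 had an unadjusted p under 0.05. Psme1, part of the interferon-induced activator cap, differed by 0.35 ± 0.14 (SE; limma adjusted p = 0.261). The probe named Psme2b differed by 0.30 ± 0.12 (SE; limma adjusted p = 0.259), but its gene is a close copy of Psme2, and whether the probe tells them apart was not tested. The inhibitor Psmf1 differed by 0.35 and overlapped. Another list held 11 further base and lid parts and bound proteins that the symbol pattern does not take. Of these 1 had an unadjusted p under 0.05 in limma, Zfand2a, an adaptor of the base induced by arsenite. It was at 3.15, 3.05 and 2.95 in young and 3.48, 3.55 and 3.62 in aged arrays (0.50 ± 0.11, SE; limma adjusted p = 0.140). The deubiquitinases Usp14 and Uchl5 differed by 0.30 and 0.24.

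Among 11 tested regulators of subunit transcription the median difference was 0.17, with 8 above 0. Nfe2l1, the factor that raises proteasome genes when the proteasome is inhibited, was at 0.14, 0.39 and 0.31 in young and 0.19, 0.70 and 0.11 in aged arrays. The aged arrays spanned the young range, and the difference was 0.051 ± 0.19 (SE; limma adjusted p = 0.908). Its dimerisation partner Mafg differed by -0.31 ± 0.12 (SE; limma adjusted p = 0.263), and Nfe2l3 and Nfyb by -0.56 and 0.44. The ubiquitin genes and activating enzymes, 7 tested, had a median of 0.16, with Ubb at 0.20, Rps27a at 0.16 and Uba6 at 0.21. The 11 shuttles and unfoldase genes had a median of 0.13, led by Sqstm1 and Faf2 at 0.34 and 0.20. Of 4 free deubiquitinases, Usp5 and Usp7 were at 0.16 and 0.14. Of 14 autophagy genes, 2 had an unadjusted p under 0.05, Map1lc3b (0.66 ± 0.14, SE; limma adjusted p = 0.139) and Map1lc3a (0.38 ± 0.11, SE; limma adjusted p = 0.194).

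**Figure D5:**
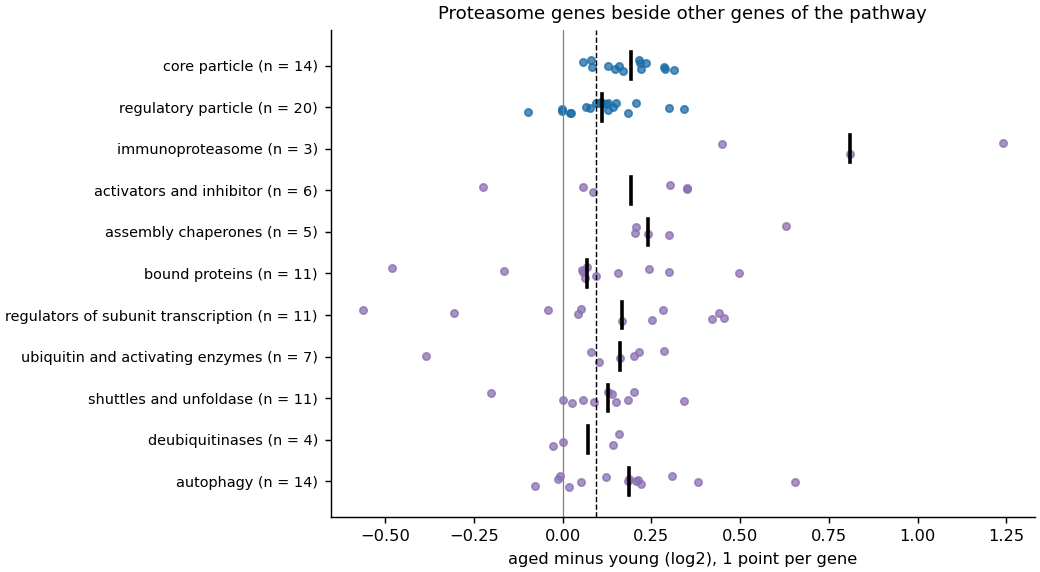
Aged minus young difference (log2) of each tested gene, in 14 core particle genes, 20 regulatory particle genes without Psmc3ip and 9 lists of other genes of protein degradation. Each point is a gene, the black bars are list medians and the dashed line is the median of all named genes, 0.093. The immunoproteasome list has the median farthest to the right, 0.81.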

How the data were processed

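The members and gene lists were chosen with earlier results of these data known. Total RNA from 3 young and 3 aged tail epidermis samples was amplified, labelled with Cy3 and hybridised to 1-colour arrays, per the labels' protocols. The deposited scanner files hold the signal intensity of each spot. Per the file headers it was background-corrected in Feature Extraction (version 11.5.1.1), on a design placed on mm9. The authors' deposited value table holds 33870 probes as log2 values. Each column correlated with the probe-centred scanner values at 0.9999 or above, its scale was taken as log2 and centred per probe from that match, and column medians were -0.013, -0.021, -0.021, -0.0087, 0.016 and 0.071 (young 1 to 3, aged 1 to 3). It served as an alternative only.

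Processed intensities were set to log2 minus each array's 75th percentile over non-control spots. Control spots were dropped, as were 116 to 170 outlier spots on each array, and the mean was taken where a probe had several spots. Of 55681 probes, 28331 took a gene name through their RefSeq accession and 27350 stayed unnamed. Probes well above background on 3 or more of 6 arrays were kept (29508), with the brightest probe per gene, which left 25066 features (14135 named genes). Another 2 probes were left out for a missing value. Of the 45 member probes, 29 genes had 1 and 8 had 2.

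Differences were fitted with limma 3.58.1 (R 4.3.3; lmFit and eBayes, moderated over all features), with group as the only term and Benjamini-Hochberg adjustment over all features at 0.05. The fit was also run on simulated data with independent noise and added differences larger than that of any member. That run does not bear on differences of the members' size. Changes between catalytic pairs used the exact two-sided permutation test. Genes given in full were the 3 catalytic subunits, the 5 with the largest and the 5 with the lowest difference, and members whose probes disagreed in sign. The lowest p among the Psma, Psmb, Psmc and Psmd symbols was also given in full, which for Psmc was Psmc3ip and not an ATPase. Others were given beside them by role. Of each pathway list, up to 3 genes by unadjusted p were named, with Nfe2l1 and Pomp always. The lists also held Psme2 and Paaf1, which no probe named, and Ddi1 and Uchl1, which did not pass the filter.

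Groups share replicate numbers. Deviations from the group means of same-numbered samples correlated at 0.41, 0.26 and 0.10 across features. The same correlation was not computed between samples of different numbers, and deviations within a group depend on each other. These values therefore cannot show that the numbers pair the samples, and the labels name nothing shared. Ddx3y and Eif2s3y, both Y-linked, were well above background on the samples numbered 1 alone, although a probe of Y-linked Uty was also so on young replicate 3. The main fit and the permutation test used no pairing, and the replicate block was run as an alternative. The array layout put young replicates 1 and 2 in row 1 of the slide and the other arrays in row 2. Alternatives were a replicate block, leaving out each array or both samples numbered 1, normexp (offset 50) on median signals, quantile and median scaling, other filters, the mean of a gene's probes, outlier spots kept, slide row, array weights and the authors' table. A protein comparison was planned but not made here.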

Additional observations from a re-analysis of the deposited data

How the results depend on the processing

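Across 19 alternatives the count of members past the adjusted threshold in limma stayed at 0, and members above 0 numbered 25 to 34. The median differences of all, core and regulatory members stayed positive and moved by less than 1 SD of the spread between arrays (0.043 to 0.22 over all members). The median of all named genes was also positive in each setting (0.0070 to 0.16). Without aged replicate 1 the median of all members was below that of named genes, at 0.11 against 0.12. These medians were 0.060 and 0.057 after quantile normalization, and 0.098 and 0.090 without young replicate 2. The count of features past the threshold was 16, and it was 0 with the replicate block (20.0% of features at an unadjusted p under 0.05; 1 member, Psmc3ip), 0 with slide row as a block (6.95%), 314 without both samples numbered 1, 7 after quantile normalization, 31 scaled to the median, 6 with the filter on all 6 arrays, 1 with no filter and 3269 with array weights, where the lowest adjusted p of a member was 0.0709. The replicate block changed no call of a member. Leaving out single arrays gave 0 to 1318 features, the latter without aged replicate 1.

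Members without overlap numbered 7, but 29 without both samples numbered 1 (beside 46.7% of named genes), 2 after quantile normalization (16.8%) and 2 with the percentile over probes detected on all arrays (12.9%); single arrays left out gave 7 to 28. Among the members given in full, signs turned for 5, and the cause was not tested. Psmc5 was at 0.027 without both samples numbered 1, 0.0031 with normexp, 0.067 scaled to the median and 0.0065 in the authors' table. Psmd10 was at 0.11, 0.016, 0.064 and 0.0041 in those settings, 0.12 as the mean of its probes and 0.20 with slide row as a block. Psmd7 was at -4.2e-05 with normexp, -0.077 after quantile normalization and -0.062 with the percentile over probes detected on all arrays, where Psmb7 was at -0.034 and -0.027 and Psmd2 at -0.060 and -0.066 in the latter settings. Leaving out single arrays gave -0.052 to 0.035 for Psmc5, -0.10 to 0.088 for Psmd10, -0.056 to 0.083 for Psmd7, -0.021 to 0.14 for Psmb7 and -0.0033 to 0.057 for Psmd2. The slide row block rests on a single young array in the row shared with aged arrays. Scaling to the median moved the median of all features from 0.043 to 0.11, and the percentile over probes detected on all arrays moved it to -0.043. The absolute difference was above the residual SD in 18 of 35 members, close to the background of 7248 of 14135 named genes and 12654 of 25066 features. With 3 arrays a group, all 35 confidence intervals of the members included 0.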
